A study of Rattus norvegicus with 4 samples.

Results

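The 10 genes described here encode amino acid transporters of the plasma membrane, and all 10 were found by name among the 17147 gene names of the deposited expression table. They are the heavy chain Slc3a2, its light chains Slc7a5, Slc7a6 and Slc7a11, the cationic transporter Slc7a1, the neutral exchangers Slc1a4 and Slc1a5, the sodium-coupled transporters Slc38a1 and Slc38a2, and the glycine transporter Slc6a9. RNA came from neonatal rat ventricular myocytes, primary heart muscle cells of newborn rats that were grown without serum. In 2 libraries the cells had received DMSO, the vehicle, and in 2 libraries 3 µM TMP195, a small molecule that inhibits the class IIa histone deacetylases, in both cases for 48 h. The labels name neither the strain nor whether the libraries came from separate cultures or pooled animals, and the p-values therefore rest on how these 4 libraries vary, possibly for technical reasons. The comparison asks how inhibition of the class IIa enzymes alters transcript levels in cardiac myocytes.

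Amino acids cross the cell membrane on carriers that differ in what they carry and in what drives them. Slc3a2, also called CD98, is a glycoprotein that does not transport by itself but is joined by a disulfide bond to a light chain and brings it to the cell surface. Sodium-coupled carriers such as Slc38a2 build up neutral amino acids in the cell, and exchangers then trade these for other amino acids. When amino acids run short or translation is restrained by phosphorylation of eIF2alpha, the transcription factor ATF4 is made and, with partners of the C/EBP family, binds C/EBP-ATF response elements in many transporter genes. NRF2, the factor of the antioxidant response, acts on Slc7a11, since the cystine it imports feeds glutathione synthesis, and MYC is known to raise several glutamine and leucine carriers.

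Promoter windows of the members are shown because 9 of the 10 genes moved in the same direction, as described below. RefSeq (assembly GRCr8) gave a window, from 250 bases before to 50 bases after an annotated start, for 9 of the 10 genes, with 2 windows for Slc3a2 and 10 windows in all. The 3 motifs searched on both strands were TGATGNAA, the core of the C/EBP-ATF response element, TGACNNNGC, the core of the antioxidant response element, and CACGTG, the E-box to which MYC and TFE3 bind. Printed 5′ to 3′ on the gene's strand, with the matches in capitals, are the window of Slc3a2 that held a match and the windows of the 3 genes that held a C/EBP-ATF core.
Slc3a2 (GRCr8, chr1:215039621-215039920, minus strand): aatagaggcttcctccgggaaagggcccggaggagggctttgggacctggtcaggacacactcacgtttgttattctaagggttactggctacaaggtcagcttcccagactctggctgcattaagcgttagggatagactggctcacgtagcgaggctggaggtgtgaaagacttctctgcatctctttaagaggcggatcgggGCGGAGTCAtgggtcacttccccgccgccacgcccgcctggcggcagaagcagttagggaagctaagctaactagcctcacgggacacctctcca
Slc7a1 (GRCr8, chr12:11664238-11664537, plus strand): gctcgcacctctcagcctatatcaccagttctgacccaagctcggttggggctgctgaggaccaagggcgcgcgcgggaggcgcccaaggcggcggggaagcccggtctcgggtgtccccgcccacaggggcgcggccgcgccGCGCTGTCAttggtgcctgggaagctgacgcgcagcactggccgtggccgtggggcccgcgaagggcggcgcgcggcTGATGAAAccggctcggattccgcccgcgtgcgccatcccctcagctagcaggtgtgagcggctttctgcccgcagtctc
Slc1a4 (GRCr8, chr14:98761513-98761812, minus strand): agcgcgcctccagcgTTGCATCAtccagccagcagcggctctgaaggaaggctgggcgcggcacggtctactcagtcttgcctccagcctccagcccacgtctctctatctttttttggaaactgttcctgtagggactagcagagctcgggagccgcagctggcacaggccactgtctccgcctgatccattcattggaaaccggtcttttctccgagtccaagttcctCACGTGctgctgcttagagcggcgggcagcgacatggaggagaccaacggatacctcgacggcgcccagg
Slc38a1 (GRCr8, chr7:129681352-129681651, minus strand): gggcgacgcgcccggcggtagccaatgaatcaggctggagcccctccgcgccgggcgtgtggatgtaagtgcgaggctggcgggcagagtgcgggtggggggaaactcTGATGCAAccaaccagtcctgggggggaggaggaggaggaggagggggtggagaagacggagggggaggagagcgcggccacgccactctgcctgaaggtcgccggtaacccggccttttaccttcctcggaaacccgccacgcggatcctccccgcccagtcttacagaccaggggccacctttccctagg

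The C/EBP-ATF core was found in 3 members, Slc7a1, Slc1a4 and Slc38a1. In Slc7a1 it began 30 bases before the annotated start, in Slc38a1 142 bases before and in Slc1a4, on the opposite strand, 235 bases before. Among all 33469 promoter windows of this length 3.98% held that core. The antioxidant core, which 12.1% of all windows held, was found in 3 members. It began 45 bases before the start in Slc3a2 and 107 bases before it in Slc7a1, both on the opposite strand, and 50 bases before it in Slc38a2. The E-box, held by 6.42% of all windows, lay 179 bases before the start of Slc7a5 and 20 bases before that of Slc1a4. The windows of Slc7a6, Slc7a11 and Slc6a9 and the other window of Slc3a2 held none of these letters. No matches of different motifs overlapped. A match describes the letters of the window and says nothing of binding. Sequence outside these windows was not searched, so a window without a match does not show that the gene lacks such an element.

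With TMP195 9 of the 10 transporter genes rose and 0 fell, and Slc1a5 did not pass the test. The 10 genes were chosen with earlier results of these data known, so this count is no independent evidence. Of all 12689 genes tested 9.93% rose and 10.3% fell by the same test, limma on log2(value + 1) with a Benjamini-Hochberg adjusted p under 0.05. The median log2 fold change of the 10 members was 0.40, with a range from 0.08 to 1.05, beside a median of -0.01 over all genes tested. In 9 members both TMP195 libraries lay above both vehicle libraries, as they did in 28% of all genes tested, and in 28.7% of genes the order was the reverse. Values below are the authors' scaled fragment values, in which 1 unit is about 1 sequenced fragment, and each member rested on at least 247 fragments in every library. Without vehicle 1, without vehicle 2 or without TMP195 2, limma called 0 of the members, and 0 genes in all, while it called 6 without TMP195 1. A further setting, chosen after the data were seen, kept only genes of a mean value of 100 or more. In it Slc7a6, Slc1a4 and Slc1a5 missed the threshold in some or all of the same 4 fits. Log2 fold changes ran from 0.32 to 0.45 for Slc7a6, 0.20 to 0.40 for Slc1a4 and -0.10 to 0.25 for Slc1a5. Those of the other members lay between 0.25 (Slc38a2) and 1.10 (Slc7a11).

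The libraries held between 11768452 and 14232152 fragments. The 9 measured cardiac myocyte markers were detected in every library and summed to 410794 and 410226 with vehicle and to 375514 and 384314 with TMP195, with 1 higher and 3 lower. Fibroblast markers summed to 98121 and 94641 with vehicle and to 69910 and 72819 with TMP195. Most of that sum was Col1a1 and Col3a1 (vehicle means 68209.5 and 17526.5). Of the 13 markers 7 fell, beside 10.3% of all genes tested, and 6, among them Dcn, Ddr2 and Postn, did not pass. Of 10 smooth muscle and pericyte markers 5 fell, with sums of 20869 and 20739 against 15683 and 16301. Much of that sum was Acta2 and Tagln, and the 5 that did not pass included Pdgfrb. Endothelial markers summed to 517 to 830 units (1 of 9 rose, 2 fell), macrophage markers to 473 to 586 (0 of 8 tested passed in either direction), epicardial and epithelial markers to 414 to 574 (1 of 5 rose), glial and neuronal markers to 216 to 296 (1 of 4 tested fell) and red cell markers to at most 13.1 (0 of 3 tested passed). Fewer cells of a type and less RNA per cell cannot be told apart in these bulk libraries. The part that the fall of some fibroblast and mural cell markers has in the transporter values was not tested.

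**Figure D1:**
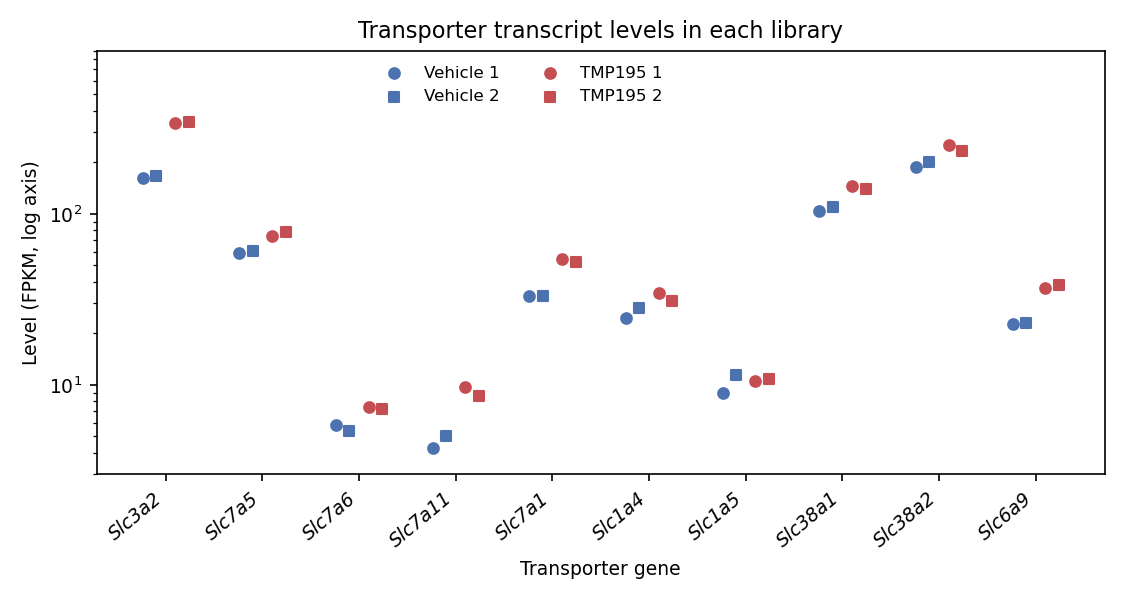
Level of each of the 10 transporter genes in FPKM (log axis) in the 2 vehicle libraries (blue) and the 2 TMP195 libraries (red), 1 point per library. The red points lie above the blue ones for 9 genes and overlap them for Slc1a5, and Slc3a2 rises from 163 and 167 to 341 and 345 FPKM.

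Slc3a2, the heavy chain that carries its light chains to the surface, had the largest fold change of the 10, followed by Slc7a11, whose confidence interval overlaps its own. Its values were 3801 and 3894 in the vehicle libraries and 7924 and 8035 in the TMP195 libraries. The libraries of each treatment lay within 2.45% of each other, and the treatments were far apart. From 3847 ± 65.8 to 7979.6 ± 78.7 (SD, n = 2 each) it rose 2.07-fold (95% confidence interval 1.88 to 2.29; adjusted p = 1.59e-12 by limma). By p it ranked 10th among the 12689 genes tested, and by fold change 347th.

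Slc7a11 is the light chain of the cystine and glutamate exchanger. It had values of 522 and 613 with vehicle and of 1193 and 1056 with TMP195. The groups did not overlap, although the replicates of this gene differed more than those of Slc3a2. It rose 1.98-fold (1.71 to 2.29), from 568 ± 64.0 to 1124 ± 96.5 (SD, n = 2 each; adjusted p = 1.67e-08 by limma).

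Slc7a5, the light chain that brings leucine and other large neutral amino acids into the cell, rose less than its partner, with confidence intervals that do not overlap. Its values were 2709 and 2765 with vehicle and 3404 and 3566 with TMP195, a rise of 1.27-fold (1.15 to 1.41; adjusted p = 0.000652 by limma). Slc7a6, the light chain that exchanges arginine for neutral amino acids, gave 284 and 260.1 with vehicle and 359 and 352 with TMP195. All TMP195 values of both genes were above all vehicle values. Slc7a6 rose 1.31-fold (1.08 to 1.58; adjusted p = 0.0422 by limma). That call was lost without the filter on low values (adjusted p = 0.0654), with scaling to the same total (0.0605) and with limma-voom (0.0545). A gene on the opposite strand beside it, Slc7a6os, had a log2 fold change of 0.15 (SE 0.13, adjusted p = 0.466 by limma). RefSeq places these neighbours side by side without overlap, and the table gives no strand.

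Relative to the heavy chain, transcripts of Slc7a5 and Slc7a6 stood lower with TMP195. On the FPKM scale, which divides by transcript length, the Slc7a5 level was 36.3% and 36.1% of the Slc3a2 level in the vehicle libraries and 21.8% and 22.5% in the TMP195 libraries. For Slc7a6 the figures were 3.59% and 3.21% with vehicle and 2.17% and 2.10% with TMP195. Slc7a11 kept pace with the heavy chain, at 2.62% and 3.00% with vehicle and 2.86% and 2.50% with TMP195, ranges that overlap. The 3 light chains together stood at 42.5% and 42.3% of Slc3a2 with vehicle and at 26.9% and 27.1% with TMP195. The summed ratio, most of which is Slc7a5, did not overlap between treatments. It leaves out 2 other partners of the heavy chain. These are Slc7a8 (5.83 FPKM with vehicle, 5.24 with TMP195) and Slc7a7 (2.26 and 2.25). No test is given for these ratios, as an exact two-sided permutation test of 2 against 2 libraries cannot go below p = 0.333.

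**Figure D2:**
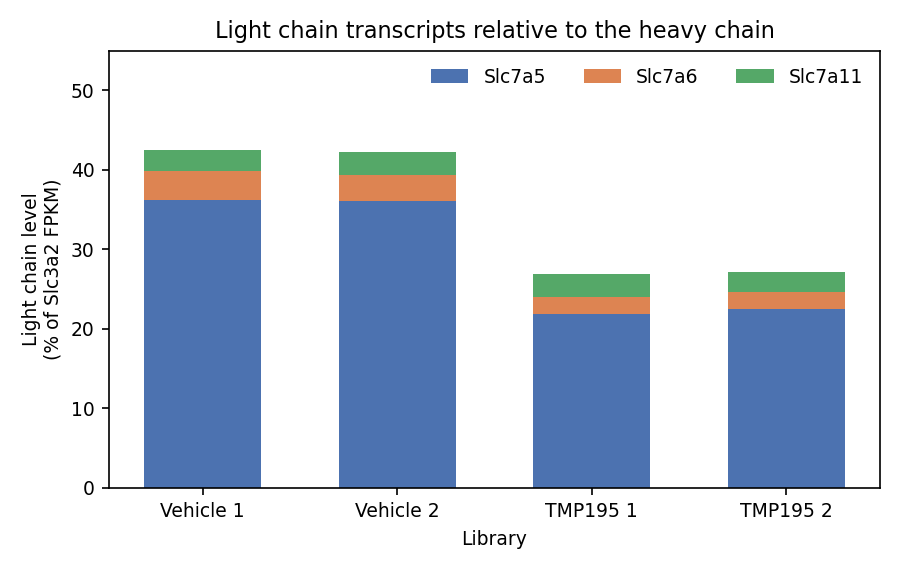
Levels of Slc7a5, Slc7a6 and Slc7a11 as a percentage of the Slc3a2 level (FPKM over FPKM), stacked for each of the 4 libraries. The stacks reach 42.5% and 42.3% in the vehicle libraries and 26.9% and 27.1% in the TMP195 libraries, and the difference lies mostly in Slc7a5.

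Slc7a1, which carries arginine and lysine without a heavy chain, rose as well, and relative to its level it had the narrowest vehicle spread of the members. Its values were 2899.7 and 2911 with vehicle and 4789 and 4584 with TMP195. The groups were well apart, and Slc7a1 rose 1.61-fold (1.46 to 1.78; adjusted p = 1.46e-08 by limma). Its neighbours in the RefSeq order, Ubl3 (log2 fold change -0.06) and Mtus2 (-0.19), did not pass the test.

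Slc6a9 encodes a sodium- and chloride-coupled glycine transporter, GlyT1. It had values of 953 and 962 with vehicle and of 1538 and 1613 with TMP195. These groups lay far apart as well, with a rise of 1.64-fold (1.46 to 1.86; adjusted p = 1.88e-07 by limma). Ccdc24, which overlaps Slc6a9 on the opposite strand in RefSeq, had at most 4.39 units in any library.

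The sodium-coupled transporters of small neutral amino acids rose by modest amounts from high levels. Slc38a2, the carrier that cells raise when amino acids are scarce, had the highest value of the members in every library, 11613 and 12522 with vehicle and 15649 and 14390.3 with TMP195. It rose 1.24-fold (1.13 to 1.37; adjusted p = 0.00117 by limma). Slc38a1, a carrier of glutamine, had 2815 and 2954 with vehicle and 3942 and 3749 with TMP195, and rose 1.33-fold (1.20 to 1.48; adjusted p = 7.71e-05 by limma). Neither gene's groups overlapped. Slc38a4, next to Slc38a2 in the RefSeq gene order as Slc38a1 is on the other side, had a log2 fold change of the opposite sign, -0.36 (SE 0.13), which did not pass the test (adjusted p = 0.0532 by limma). It passed when the mean value had to be 10 (adjusted p = 0.0415) or 100 or more (0.0310), with scaling to the same total (0.0353) and with limma-voom (0.0280). Its log2 fold change was -0.19 without TMP195 2 (adjusted p = 0.451) and -0.53 without TMP195 1 (0.0886).

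The exchangers of the SLC1 family had the smallest fold changes, although that of Slc1a4 lay within the error of Slc38a2. Slc1a4, which exchanges alanine, serine and cysteine, had values of 622 and 713 with vehicle and of 864 and 779 with TMP195. The nearest libraries of the treatments, vehicle 2 and TMP195 2, were closer together than the replicates of either treatment. Slc1a4 rose 1.23-fold (1.06 to 1.42; adjusted p = 0.0362 by limma). The call was lost with a pseudocount of 0.1 (adjusted p = 0.0561), without the filter on low values (0.0816) and with scaling to the same total (0.0544). The log2 value of 0.30 shrank to 0.20 when vehicle 1 was left out and to 0.23 when TMP195 1 was.

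Slc1a5, a glutamine exchanger, was the member that did not pass. Its values were 294 and 375 with vehicle and 347 and 354 with TMP195, so that both TMP195 libraries lay between the vehicle libraries. The fitted ratio was 1.06, with a 95% confidence interval from 0.869 to 1.28 (adjusted p = 0.759 by limma). This interval includes rises as large as those of Slc1a4 and Slc38a2. The log2 fold change of 0.08 became -0.10 without vehicle 1.

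Replicates of the members differed unevenly. For Slc7a6 the change from vehicle 1 to vehicle 2 was -8.56%. Vehicle 2 was above vehicle 1 by 27.5% for Slc1a5, 17.3% for Slc7a11, 14.6% for Slc1a4 and 7.83% for Slc38a2, and by 0.388% for Slc7a1. For Slc7a11, Slc1a4 and Slc38a2 the TMP195 libraries went the other way, with changes of -11.4%, -9.85% and -8.05% from TMP195 1 to TMP195 2. Over all genes tested the median log2 difference, replicate 2 minus replicate 1, was 0.00018 for vehicle and -0.00020 for TMP195. The authors' scaling of each library can by itself set this median near 0, so it is no measure of replicate agreement.

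Per transcript length, the levels of the members covered a wide range and held much of their order. With vehicle Slc38a2 (195 ± 10.4 FPKM, SD, n = 2) stood above Slc3a2 (165 ± 2.84), Slc38a1 (107 ± 3.65) and Slc7a5 (59.8 ± 0.856). Slc7a1 (33.0 ± 0.0904), Slc1a4 (26.5 ± 2.55), Slc6a9 (22.8 ± 0.145), Slc1a5 (10.2 ± 1.74), Slc7a6 (5.61 ± 0.355) and Slc7a11 (4.64 ± 0.523) followed. With TMP195 Slc3a2 (343 ± 3.40 FPKM, SD, n = 2) was above Slc38a2 (242 ± 14.4), Slc6a9 (37.6 ± 1.27) above Slc1a4 (32.6 ± 2.39) and Slc7a11 (9.19 ± 0.790) above Slc7a6 (7.33 ± 0.108). These 3 neighbouring pairs changed places, and within a treatment no neighbours in the order overlapped between their libraries. The 10 genes summed to 614 and 645 FPKM in the vehicle libraries and to 967 and 943 in the TMP195 libraries. Slc3a2 accounted for 54.7% of that gain, Slc38a2 for 14.6% and Slc38a1 for 11.0%.

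In the authors' deposited table, 6 of the 10 genes had an unadjusted p under 0.05, the smallest being that of Slc3a2 (0.000380 in the authors' deposited table). The other 4 were Slc7a6, Slc38a2, Slc1a4 and Slc1a5, with p of 0.0711, 0.0726, 0.133 and 0.759 in the authors' deposited table. Of these, Slc7a6, Slc38a2 and Slc1a4 were called higher by limma above but miss 0.05 here even without adjustment. The share of all genes under 0.05 by the authors' p was not counted, so the 6 of 10 has no background to stand beside.

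Other amino acid transporters did not move in a single direction. Members and this list were chosen with earlier results of these data known, so no conclusion is drawn from the contrast between them. Of 56 on the list, 52 were in the table and 38 were tested. Among the tested genes 4 rose, 3 fell and 31 were not called, with a median log2 fold change of -0.02. Against the background of 9.93% higher and 10.3% lower over all genes, these counts are near what the table shows in general. A further 8 were listed at 0 in every library, which in this table need not mean that no transcript was present.

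Slc7a3, a cationic transporter of the same subfamily as Slc7a1, had the largest fold change of those that passed. Its values were 158 and 195 with vehicle and 336 and 343 with TMP195, without overlap, and its log2 fold change was 0.95 (SE 0.15, adjusted p = 3.04e-05 by limma). Slc38a7, a lysosomal transporter of glutamine and asparagine, rose by 0.40 on the log2 scale (SE 0.12, adjusted p = 0.0163 by limma). The mitochondrial carriers Slc25a44, for branched-chain amino acids, and Sfxn1, for serine, rose by 0.29 (adjusted p = 0.0206 by limma) and 0.30 on the log2 scale (adjusted p = 0.0355 by limma). The Sfxn1 call was lost with a pseudocount of 0.1 (adjusted p = 0.0519), without the filter on low values (0.0725) and with scaling to the same total (0.0535). Its log2 fold change was 0.19 without vehicle 1 and 0.41 without vehicle 2. With single libraries left out and a mean value of 100 or more, Sfxn1 was called without vehicle 2 alone, Slc38a7 missed the threshold without vehicle 2 (adjusted p = 0.0561) or TMP195 1 (0.131), and Slc25a44 was lost without vehicle 1 (0.184) and without TMP195 2 (0.0710), whereas Slc7a3 was called in all 4 fits.

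The 3 that fell carry taurine, neutral amino acids and acidic amino acids. Slc6a6, the taurine transporter, had 1458 and 1696 with vehicle and 1193 and 1109.7 with TMP195 (log2 fold change -0.45, SE 0.09, adjusted p = 0.000347 by limma). Slc6a17, a neutral amino acid transporter known from synaptic vesicles, fell as well (-0.38, SE 0.08, adjusted p = 0.000944 by limma). So did Slc1a3, a glutamate and aspartate transporter (-0.41, SE 0.13, adjusted p = 0.0205 by limma). The Slc1a3 call was lost without the filter on low values (adjusted p = 0.0811), and its log2 fold change was -0.21 without TMP195 2 and -0.61 without TMP195 1. Both TMP195 libraries lay below both vehicle libraries for these 3 genes.

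The remaining partners of the heavy chain did not pass the test. Slc7a8, another light chain for neutral amino acids, had 352 and 288 with vehicle and 266 and 309 with TMP195 (log2 fold change -0.15, SE 0.14, adjusted p = 0.532 by limma). Slc7a7, the relative of Slc7a6, had a log2 fold change of -0.05 (SE 0.31) at a vehicle mean of 59.1, and Slc7a10 was too low to be tested. Slc3a1, the only other heavy chain of this family, had 342 and 298 with vehicle and 342 and 289 with TMP195 (log2 fold change -0.02, SE 0.14, adjusted p = 0.936 by limma). The cationic transporter Slc7a2 had -0.32 (SE 0.18, adjusted p = 0.227 by limma).

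**Figure D3:**
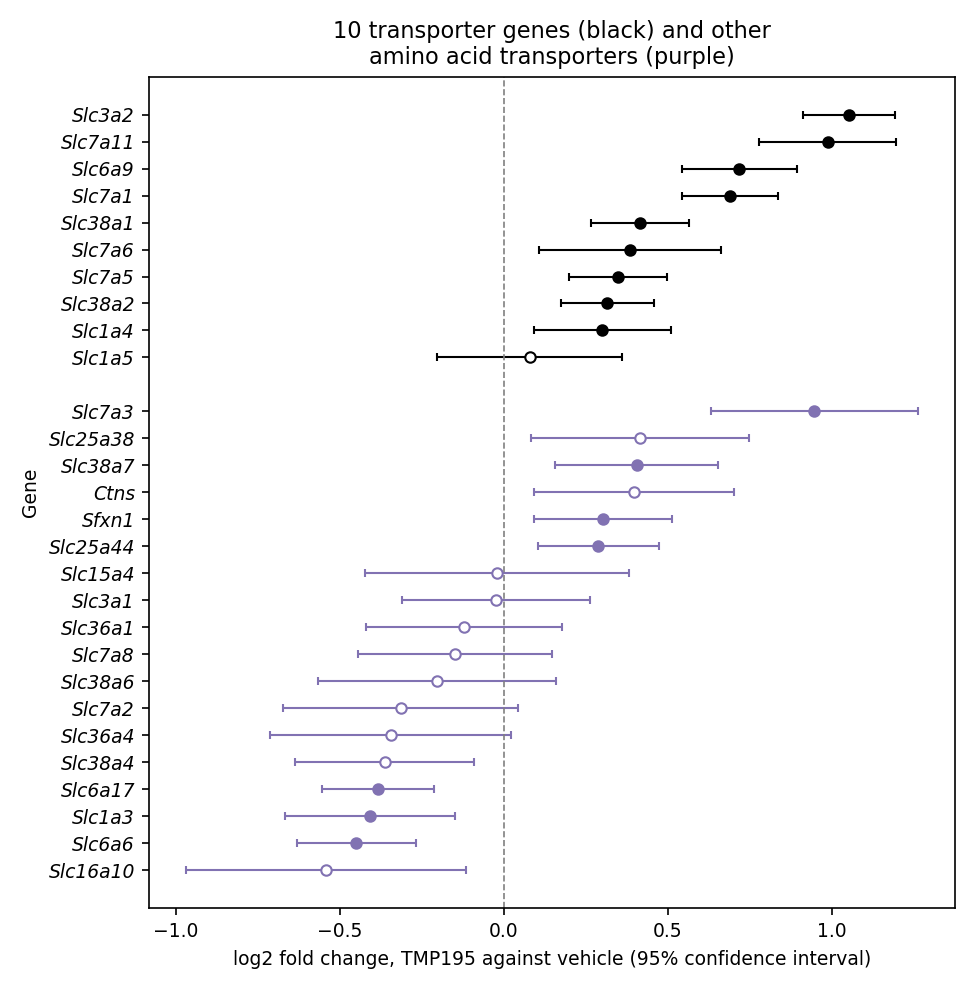
Log2 fold change with its 95% confidence interval from limma for the 10 transporter genes (black) and for the 18 other amino acid transporters with a mean value of 100 or more (purple). Filled points passed an adjusted p under 0.05. In black 9 of 10 points are filled and right of 0, whereas the purple points lie on both sides. Both lists were chosen with earlier results of these data known.

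Transcripts of the transcription factors known to act on transporter genes were measured in the same libraries. Of 11 listed, 10 rose, 0 fell and Tfeb did not pass, beside 9.93% of all genes that rose. The list was drawn up with rises of several of them already known. Atf4 had 5411 and 5683 with vehicle and 10683 and 11921 with TMP195, a log2 fold change of 1.02 (SE 0.07, adjusted p = 4.29e-12 by limma). Its partner Cebpb had 869.5 and 780.4 with vehicle and 1729 and 2055 with TMP195, with a log2 fold change of 1.19 (SE 0.09). Both factors were higher in each TMP195 library than in either vehicle library.

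Among the related stress factors, log2 fold changes were 1.31 for Atf5, 1.10 for Ddit3, which encodes CHOP, 0.87 for Atf3 and 0.55 for Cebpg. These 4 had limma adjusted p between 1.82e-11 and 0.000242. Nfe2l2, the gene of NRF2, had 2212 and 2313 with vehicle and 3186 and 3001 with TMP195 (log2 fold change 0.45, SE 0.07, adjusted p = 3.80e-05 by limma). Bach1, a repressor at antioxidant elements, rose alongside it with a log2 fold change of 0.87 (adjusted p = 2.55e-09 by limma). Myc had 2024 and 2302 with vehicle and 3789 and 4493 with TMP195 (log2 fold change 0.93, SE 0.08, adjusted p = 8.08e-10 by limma). Of the lysosomal factors, Tfe3 rose with a log2 fold change of 0.33 (adjusted p = 0.00465 by limma), while Tfeb had -0.01 (SE 0.12, adjusted p = 0.963 by limma) and its groups overlapped. These transcript levels do not show how much of each factor was bound to a transporter gene.

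**Figure D4:**
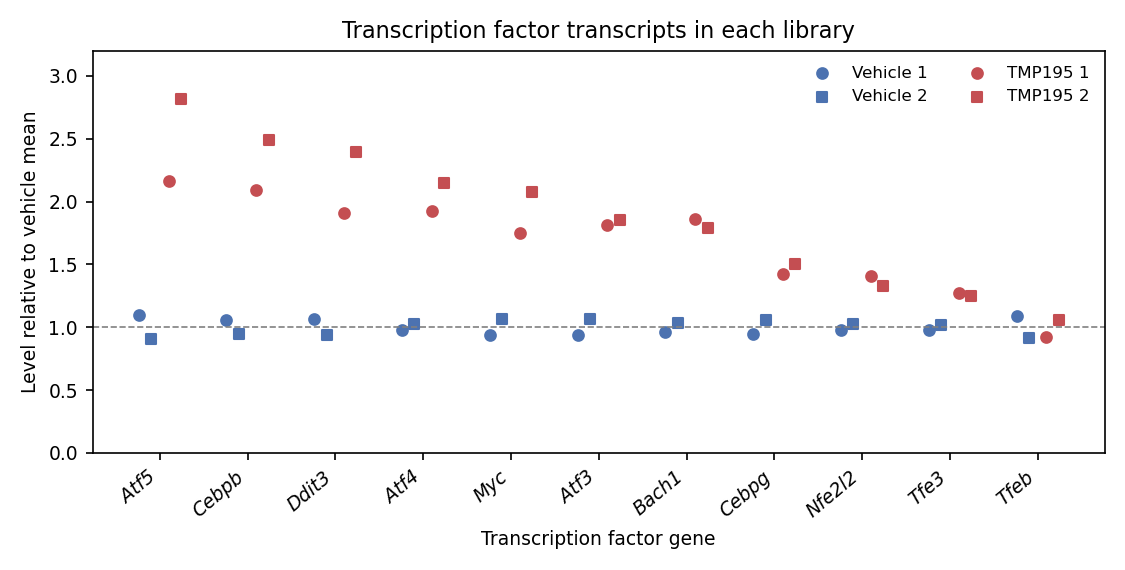
Level of 11 transcription factor genes in each library divided by the vehicle mean of the gene (dashed line at 1), with vehicle libraries in blue and TMP195 libraries in red. All genes but Tfeb have both red points above both blue points.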

How the data were processed

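Total RNA of 4 cell samples was purified on columns and libraries were prepared with the Ovation system, per the labels' protocols. The submitters' processing notes name Cufflinks. Its version, the build, the aligner and the annotation were not stated in the sources used here. The deposited main table is a signal: fragments per gene scaled by 1 factor per library, read from the values, of which 99.3 to 99.5% of those up to 10000 fragments were multiples of a step within 0.1 fragment. A further deposited table gives FPKM for 10673 genes and an unadjusted p-value by the authors.

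Because these values are no raw reads, limma 3.58.1 in R 4.3.3 was fitted to log2(value + 1) of the 12689 genes whose mean value was at least 1, with a trend, treatment as the only term and 2 residual and 27.4 prior degrees of freedom. P-values were Benjamini-Hochberg adjusted over all of them. Fold changes on this scale understate those of low genes. The planned count tests and scaling factors that need whole reads were not run. Replicates differed by more than sampling noise (chi-square per gene of 4.90 and 5.98 where 20 or more fragments were seen), so each library counted once. The fit was tested on simulated data.

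Members and lists were chosen with earlier results of these data known. All 10 members, all listed transcription factors and, of the other transporters, those past the threshold and the 5 with the highest vehicle mean are named. Slc3a1, Slc7a2, Slc7a7, Slc7a8, Slc7a10, Slc38a4, the neighbours of members and the single cell type markers were named after their values were seen. Alternatives were other pseudocounts, filters and scalings, limma-voom, the replicate number as a block, and each library left out.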

Additional observations from a re-analysis of the deposited data

How the results depend on the processing

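Over all genes, the 9 alternatives that kept the 4 libraries called from 942 higher (of 13838 tested, no filter) to 1386 (of 8235, mean value of 100 or more). Of the 10 transporter genes 7 were called higher under all 9 of these alternatives, and the count was 7 to 9. Without single libraries limma with all genes called 0 to 6 of them, 0 to 322 genes higher and 0 to 406 lower in all, 0 to 8 of the transcription factors, and of the other transporters 0 higher and 0 to 1 lower, and an unadjusted p under 0.05 was reached by 2589 to 2841 genes; with 3 libraries 1 treatment has a lone sample, assumed to vary like the others. The main fit called 4 of the other transporters higher and 3 lower. With all 4 libraries and a mean value of 100 or more, 6 were higher and 5 lower, and with limma-voom 5 were lower. Over all genes that filter gave 1386 higher and 1276 lower. Log2 fold changes that turned when single libraries were left out were those of Slc1a5 (-0.097 without vehicle 1; range to 0.25), Slc3a1 (0.076 without vehicle 1, 0.098 without TMP195 2; range from -0.15), Slc7a7 (0.052 and 0.34 likewise; range from -0.44) and Tfeb (0.11 without vehicle 1, 0.086 without TMP195 1; range from -0.14), none of which had passed the test; the cause was not tested. Same-numbered libraries did not deviate together (correlation 0.005 over genes). That cannot exclude pairing, since low genes with noisy values enter it, and no label says whether the numbers pair the libraries. With the replicate number as a block 8 members were called, and Slc7a6 was not (adjusted p = 0.0525 by limma). The scalings moved the median of all genes to between -0.03 and 0.00. The table holds scaled values, and the planned tests on whole reads recovered from them (edgeR's and DESeq2's) and edgeR's scaling were not run.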
